A study of Mus musculus with 48 samples.

Results

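The response of the neonatal lung to hyperoxia was examined in the XYF genotype of the FCG mouse model, 1 of its 4 genotypes, at P5. In FCG mice the testis-determining gene Sry has been moved from the Y chromosome to an autosome, so that the gonad no longer follows the sex chromosomes. XYF pups carry an X and a Y chromosome, no Sry, and ovaries. The comparison was made between 3 XYF pups exposed to 95% O2 (animals 29, 30 and 31) and 3 XYF pups kept in room air (animals 13, 14 and 15), 6 of the 48 animals of the series, and they were chosen by genotype, age and treatment alone. All were C57BL/6J mice, and RNA came from flash-frozen whole lung. Titles and the age field put the lungs at day 5. The text of the series has the pups in oxygen from day 1 to day 5 and takes the early lungs at day 7, while the published methods give exposure on P1 to P4 and early collection at P5. The other genotypes at P5 are XXF (2 X chromosomes, ovaries), XYM (X and Y chromosomes, testes) and XXM (2 X chromosomes, testes), with 3 exposed and 3 room-air animals each. The Sry transgene is the difference between gonadal males and females in this model, and shared litters or chambers are not stated.

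High inspired oxygen in the newborn raises reactive oxygen species in a lung that is still forming alveoli. Capillary endothelium and alveolar epithelium are the cells most exposed to it, and mouse pups kept in high oxygen serve as a model of bronchopulmonary dysplasia, the chronic lung disease of preterm infants, with fewer and larger alveoli and fewer microvessels. At this age alveolar walls grow by secondary septation, in which PDGFRA-positive myofibroblasts lay down elastin at the septal tips while both layers of capillaries expand.

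Read counts per lung were 18496305, 16763779 and 16346321 in room air and 7223720, 14614349 and 18749619 in 95% O2, so that exposed animal 29 was the shallowest of the 6. Levels are in CPM, read counts scaled to the size of each library with TMM factors, listed in the order of animals 13, 14 and 15 for room air and 29, 30 and 31 for 95% O2. The sex-linked genes matched the genotype on the labels. Xist, the RNA that silences 1 X chromosome in XX cells, was at 0.916 to 2.88 CPM in the 6 XYF lungs and at 1165 to 1284 CPM in the 6 XXF lungs of the same age. The Y-linked genes Ddx3y (48.4 to 70.2 CPM), Uty (up to 26.3 CPM), Kdm5d (36.5 to 46.2 CPM) and Eif2s3y (67.8 to 95.9 CPM) were present in every XYF lung, and Sry had 0 counts in all 6. Transcripts that define lung were abundant. Surfactant protein gene Sftpc was at 16041, 14471 and 13115 CPM in room air and 18942, 15618 and 17038 CPM in 95% O2, and Ager of alveolar type 1 cells at 1697, 1579.8 and 1578 and 2167, 1730 and 1885 CPM. Exposed animal 29 also stood apart in markers of esophagus and trachea. The summed level of 12 such genes was 477 CPM in this lung and 10.5 to 26.8 CPM in the other 5, led by the stratified-epithelium keratins Krt13 (219.9 CPM), Krt4 (164 CPM) and Krt5 (31.5 CPM). Where leaving out an animal ended a call or moved a count by over 1.5 times, the values without it are given for the main genes and lists. Genes were named by size of change and, within 52 gene lists, by smallest p, and members that were not called but are well known were chosen after their values were seen.

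Hyperoxia changed 540 genes in XYF lungs, with more falls than rises. Of 17677 genes tested, 228 (1.29%) were higher and 312 (1.77%) lower in 95% O2, or 3.05% in all, by edgeR's quasi-likelihood test with Benjamini-Hochberg adjustment (adjusted p under 0.05) and a minimum change of 1.5-fold, which is what "called", "rose" and "fell" stand for below. Of the called genes 57.8% fell, and 60 of the rises and 98 of the falls reached 2-fold. The median log2 fold change was 0.79 among the genes that rose, -0.81 among those that fell and -0.00 over all tested genes. Another 981 genes passed the adjusted p but not the fold minimum. Of the called genes 520 code for protein. With 3 animals against 3 an exact permutation test of a single gene cannot go below p = 0.1 (two-sided), so p-values come from the fit across all genes. All 3 exposed lungs lay above all 3 room-air lungs for 2653 tested genes (15.0%) and below them for 2785 (15.8%). Among called genes the groups were apart in this way for 224 of the 228 rises and 305 of the 312 falls.

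**Figure D1:**
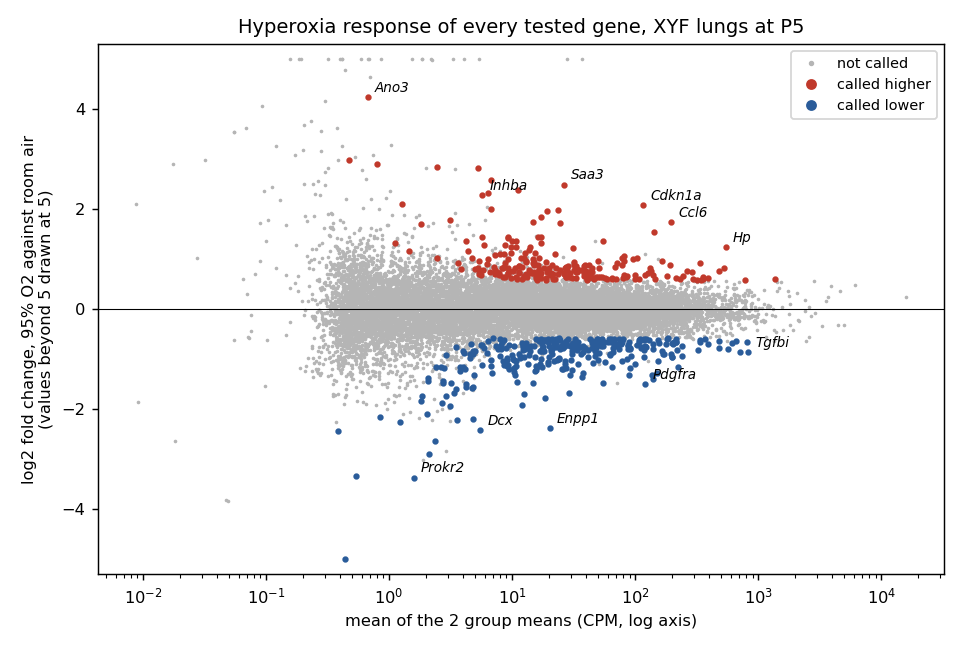
Each point is 1 of 17677 tested genes. The horizontal axis is the mean of both group means in CPM on a log axis, and the vertical axis is the log2 fold change of 95% O2 against room air in XYF lungs. The 228 genes called higher (red) and 312 called lower (blue) lie at 1.5-fold or more from the line at 0, and Cdkn1a and Ccl6 stand out among abundant genes that rose.

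Exposed animal 29 carried the extreme value for most called genes. It was the highest of the 3 exposed lungs for 153 of the 228 genes that rose (67.1%) and the lowest for 250 of the 312 that fell (80.1%), where over all tested genes it was the highest for 37.4% and the lowest for 37.8%. Room-air animal 15 was the lowest of its group for 212 of the genes that fell (67.9%, and 37.1% of all tested genes), nearest to the exposed lungs. Without animal 29 the calls numbered 126 up and 154 down. Leaving out animal 13 gave 207 down, and leaving out animal 14 gave 199 down. In all 6 fits that left out 1 of these animals, 91 rises and 129 falls were called. Exposed XXM animals 22 and 23 enter the shared estimate of spread, and they had 17201 and 15727 detected genes at matched depth where the other P5 animals had 21333 to 22031. Without them 462 genes were called up and 569 down. No called gene changed sign in any of these fits. In bulk lung RNA, fewer cells of a type and less RNA per cell cannot be told apart.

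Cdkn1a, a gene of growth arrest, had the smallest p of the 12 largest rises. It encodes p21, an inhibitor of cyclin-dependent kinases that p53 switches on after DNA damage (chr17:29090976-29100727, GRCm38, forward strand). Cdkn1a measured 38.5, 42.4 and 51.6 CPM in room air and 237, 166 and 156 CPM in 95% O2, a log2 fold change of 2.07 ± 0.16 (SE, edgeR adjusted p = 5.23e-08). The lowest exposed lung stood at 156 CPM and the highest room-air lung at 51.6 CPM, so the groups were far apart. Of 30 tested p53 target genes 7 rose (23.3%, beside 1.29% of all tested genes) and 0 fell, with a median log2 fold change of 0.44 over the list. Ccng1 went from 56.2, 49.8 and 58.9 CPM in room air to 141, 94.9 and 85.8 CPM in 95% O2 (log2 fold change 0.95 ± 0.16, SE, edgeR adjusted p = 7.84e-04). This gene encodes cyclin G1, a cyclin of the p53 feedback circuit. Zmat3 stood at 22.8, 21.6 and 24.9 CPM in room air against 52.8, 39.5 and 35.2 CPM in the exposed animals (log2 fold change 0.87 ± 0.16, SE, edgeR adjusted p = 0.00161), and it encodes an RNA-binding protein under p53 control. The other rises were Sulf2, an extracellular sulfatase (0.88), Bax, the pore-forming effector of apoptosis (0.62), the TNF-receptor family member Eda2r (2.32) and the stress-induced secreted factor Gdf15 (2.11), each as a log2 fold change. Mdm2, which turns p53 over, was at 64.4, 70.7 and 75.04 CPM in room air and 91.6, 74.4 and 79.6 CPM in 95% O2 (edgeR adjusted p = 0.175). Bax dropped below the fold minimum without animal 15 or 29 (log2 fold change 0.54). Eda2r lost its call without animal 13, 14, 15, 29, 30 or 31 (edgeR adjusted p of 0.0536 to 0.207). Gdf15 lost its call without animal 13, 14, 15, 29, 30 or 31 (edgeR adjusted p of 0.05996 to 0.214). The list held 4 without animal 29, in place of 7 rises.

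Some genes of mitosis fell. Of 42 tested cell cycle genes 12 fell (28.6%, beside 1.77% of all tested genes) and 0 rose, and the median of the list was -0.49. The 12 were Cenpf, Cenpa, Ube2c, Cenpe, Ccnb2, Ccnb1, Prc1, Cdc20, Mki67, Tpx2, Bub1b and Nusap1. Cenpf went from 63.6, 64.2 and 72.03 CPM in room air to 21.9, 34.95 and 40.2 CPM in 95% O2 (log2 fold change -1.02 ± 0.17, SE, edgeR adjusted p = 6.99e-04). Cenpf is a kinetochore protein that builds up in G2. Cenpa stood at 62.5, 58.99 and 65.7 CPM in room air against 23.6, 33.6 and 39.2 CPM in the exposed animals (log2 fold change -0.94 ± 0.18, SE, edgeR adjusted p = 0.00214), and encodes the histone variant that marks centromeres. All exposed lungs were below all room-air lungs for both genes, with animal 29 the lowest. Ube2c measured 48.3, 42.1 and 50.3 CPM in room air and 23.4, 27.8 and 32.9 CPM in 95% O2, a log2 fold change of -0.73 ± 0.15 (SE, edgeR adjusted p = 0.00252). It encodes the ubiquitin-conjugating enzyme of the anaphase-promoting complex. The proliferation antigen gene Mki67 was at 281, 276 and 346 CPM in room air and 116, 199.9 and 222 CPM in 95% O2 (-0.74 on the log2 scale). Mitotic cyclins Ccnb1 (-0.71) and Ccnb2 (-0.83), the motor Cenpe (-0.75) and the anaphase activator Cdc20 (-0.79) fell too, each given as a log2 fold change.

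Genes of DNA replication and of entry into the cycle were not called. Neither were other mitotic genes of the list, among them Cdk1, Aurka, Aurkb, Plk1, Bub1 and Kif11. The 6 subunits of the MCM helicase, Mcm2 to Mcm7, ran from -0.09 to 0.20 on the log2 scale with a smallest edgeR adjusted p of 0.566. The sliding clamp Pcna was at 143, 127 and 176 CPM in room air and 151, 182 and 172 CPM in 95% O2 (0.18, edgeR adjusted p = 0.349), with overlapping groups. The G1 cyclin Ccnd1 was higher in every exposed lung, at 118, 139 and 131 CPM in room air and 215, 189.8 and 166 CPM in 95% O2, but under the fold minimum (0.55, edgeR adjusted p = 0.00108). These genes were chosen after their values were seen. Cdc20, Tpx2, Bub1b and Nusap1 lost their calls without animal 13 (edgeR adjusted p of 0.0738 to 0.0839). Bub1b and Nusap1 lost their calls without animal 14 (edgeR adjusted p of 0.0525 to 0.0557). Mki67, Prc1, Tpx2, Bub1b and Nusap1 lost their calls without animal 15 (edgeR adjusted p of 0.0638 to 0.128). Mki67, Ccnb1, Ccnb2, Cdc20, Prc1, Tpx2, Bub1b and Nusap1 lost their calls without animal 29 (edgeR adjusted p of 0.0665 to 0.204). Cdc20, Tpx2 and Bub1b lost their calls without animal 30 (edgeR adjusted p of 0.0504 to 0.0624). The number of falls was 7 without animal 15 and 4 without animal 29. The summed level of the list overlapped between the groups, at 2622 to 3541 CPM in room air and 2014 to 2725 CPM in 95% O2.

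Many mitotic genes carry a pair of promoter elements, CCAAT boxes and the cell cycle homology region TTTGAA, through which the DREAM complex and B-MYB act on them. RefSeq promoter windows (GRCm38.p6, 250 bases before to 50 after each start) were available for 11 of the 12 mitotic genes that fell, and 8 of these 11 held both CCAAT and TTTGAA, read on both strands: Cenpf, Cenpa, Ube2c, Ccnb2, Prc1, Cdc20, Mki67 and Bub1b. Over all 27025 genes with a window, 7.97% held both. By window, CCAAT was found in 37.4% of 32851 and TTTGAA in 17.9%, each with or without the other. Among the 30 cell cycle genes that were not called, 23 had a window and 8 of those held both. The windows of 5 genes that fell are printed from 250 bases before to 30 after the start, 5′ to 3′ on the strand of the gene, to show the spacing of both elements, which are in capitals on either strand. Cenpf lies at chr1:189688057-189688336 (reverse strand), Cenpa at chr5:30666636-30666915 (forward), Ube2c at chr2:164769679-164769958 (forward), Ccnb2 at chr9:70421525-70421804 (reverse) and Cdc20 at chr4:118437314-118437593 (reverse).
Cenpf: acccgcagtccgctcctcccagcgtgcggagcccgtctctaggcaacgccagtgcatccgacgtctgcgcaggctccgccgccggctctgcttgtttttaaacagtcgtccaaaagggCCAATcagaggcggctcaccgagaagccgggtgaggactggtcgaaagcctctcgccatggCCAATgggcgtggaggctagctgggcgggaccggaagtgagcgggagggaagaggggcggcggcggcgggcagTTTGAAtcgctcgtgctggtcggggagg
Cenpa: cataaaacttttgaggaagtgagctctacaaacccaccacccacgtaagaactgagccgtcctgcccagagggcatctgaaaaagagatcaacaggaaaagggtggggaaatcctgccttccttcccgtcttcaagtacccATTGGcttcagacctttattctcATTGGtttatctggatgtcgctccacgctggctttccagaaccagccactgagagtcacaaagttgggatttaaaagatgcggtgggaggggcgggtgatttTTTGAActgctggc
Ube2c: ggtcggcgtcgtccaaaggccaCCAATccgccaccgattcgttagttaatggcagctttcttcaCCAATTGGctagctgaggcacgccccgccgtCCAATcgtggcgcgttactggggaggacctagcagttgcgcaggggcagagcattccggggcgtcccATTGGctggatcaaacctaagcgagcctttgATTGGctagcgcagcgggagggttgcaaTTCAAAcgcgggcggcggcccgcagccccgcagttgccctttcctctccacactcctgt
Ccnb2: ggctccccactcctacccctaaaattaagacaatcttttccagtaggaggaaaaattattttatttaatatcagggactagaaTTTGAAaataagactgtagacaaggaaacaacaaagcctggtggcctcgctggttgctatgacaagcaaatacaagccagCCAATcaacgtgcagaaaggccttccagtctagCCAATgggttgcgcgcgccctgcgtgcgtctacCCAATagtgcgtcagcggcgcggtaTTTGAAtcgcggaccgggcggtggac
Cdc20: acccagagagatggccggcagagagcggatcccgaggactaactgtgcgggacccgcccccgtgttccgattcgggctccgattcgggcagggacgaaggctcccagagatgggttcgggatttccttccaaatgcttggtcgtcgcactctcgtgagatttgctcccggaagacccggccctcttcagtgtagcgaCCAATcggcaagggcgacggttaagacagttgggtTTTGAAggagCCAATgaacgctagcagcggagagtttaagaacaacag

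In Cenpf, Cenpa and Ccnb2 a TTTGAA stands just past the annotated start, with CCAAT boxes upstream of it. In Cdc20 it stands before the start, between CCAAT boxes, and in Ube2c it stands before the start on the opposite strand. In Ube2c 1 pair of CCAAT matches overlaps as CCAATTGG. A match is a run of letters and was not tested for binding of any factor.

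Some chemokine and acute-phase genes rose in the exposed lungs. Of 39 tested ligands and acute-phase genes 11 rose (28.2%, beside 1.29% of all tested genes) and 0 fell, with a median log2 fold change of 0.88. The smallest p among all rises of the list belonged to Ccl6, a CC chemokine of macrophages and neutrophils (chr11:83587882-83593087, reverse strand). Ccl6 measured 88.8, 95.8 and 85.6 CPM in room air and 343, 273 and 288 CPM in 95% O2, a log2 fold change of 1.74 ± 0.11 (SE, edgeR adjusted p = 4.51e-09). Its exposed values were all more than 2-fold the highest room-air value. Ccl9 went from 10.7, 11.5 and 12.1 CPM in room air to 50.4, 25.2 and 37.97 CPM in 95% O2 (log2 fold change 1.71 ± 0.21, SE, edgeR adjusted p = 2.41e-05). Ccl9 is a neighboring CC chemokine on chromosome 11. Cx3cl1 stood at 22.1, 24.3 and 20.5 CPM in room air against 36.99, 36.7 and 36.9 CPM in the exposed animals (log2 fold change 0.72 ± 0.12, SE, edgeR adjusted p = 5.92e-04). This gene, which encodes the membrane-bound chemokine fractalkine, gave exposed values within 1 CPM of each other. The summed level of the list was 1957 to 1996 CPM in room air and 2278 to 3326 CPM in 95% O2.

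The neutrophil-attracting chemokines Cxcl2 and Cxcl5 gave larger changes at low level. Cxcl5 measured 0.765, 0.366 and 0.601 CPM in room air and 7.34, 3.42 and 2.17 CPM in 95% O2, a log2 fold change of 2.84 ± 0.64 (SE, edgeR adjusted p = 0.00693). Cxcl2 went from 0.164, 0.305 and 0.0601 CPM in room air to 2.36, 0.547 and 1.33 CPM in 95% O2 (log2 fold change 2.89 ± 0.86, SE, edgeR adjusted p = 0.0378). Both were highest in animal 29, and Cxcl2 in animal 30 was close to the room-air lungs. The acute-phase gene Saa3 was at 6.18, 3.91 and 13.3 CPM in room air and 84.1, 16.01 and 34.1 CPM in 95% O2 (2.49 ± 0.62, SE, edgeR adjusted p = 0.0134), and the lowest exposed lung was just above room-air animal 15. Wfdc17, a secreted protein of macrophages, was at 1.91, 2.08 and 1.74 CPM in room air and 16.3, 8.55 and 9.81 CPM in 95% O2 (2.58 ± 0.43, SE, edgeR adjusted p = 6.31e-04), without overlap. The iron-binding acute-phase gene Lcn2 (1.54), the macrophage and epithelial phosphoprotein Spp1 (1.98) and the calgranulins S100a8 (1.06) and S100a9 (1.01) were the other rises. The interleukin gene Il6 and the monocyte chemokine gene Ccl2 had higher values in all exposed lungs but were not called. Il6 was at 0.328, 0.0611 and 0.120 and 0.693, 0.752 and 0.424 CPM (edgeR adjusted p = 0.296), and Ccl2 at 0.711, 0.916 and 1.32 and 4.16, 2.12 and 3.13 CPM (edgeR adjusted p = 0.149). Cxcl2 lost its call without animal 13, 14, 15, 29 or 31 (edgeR adjusted p of 0.0708 to 0.187). Cxcl5 lost its call without animal 14 or 29 (edgeR adjusted p of 0.0508 to 0.0656). Saa3 lost its call without animal 13, 14 or 29 (edgeR adjusted p of 0.0706 to 0.153). Lcn2 lost its call without animal 29 (edgeR adjusted p = 0.0897). S100a8 lost its call without animal 13 or 29 (edgeR adjusted p of 0.0675 to 0.0742). The number of rises was 6 without animal 29.

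The Cxcl2 promoter window (chr5:90903649-90903928, forward strand) is printed because it alone, of 10 inflammatory genes that rose and had a window, held the NF-kappa-B consensus, GGGA and CC with 4 bases of any kind between them, which 22.9% of all genes hold. The stretch in capitals holds 2 matches to the consensus, on opposite strands, which overlap.
Cxcl2: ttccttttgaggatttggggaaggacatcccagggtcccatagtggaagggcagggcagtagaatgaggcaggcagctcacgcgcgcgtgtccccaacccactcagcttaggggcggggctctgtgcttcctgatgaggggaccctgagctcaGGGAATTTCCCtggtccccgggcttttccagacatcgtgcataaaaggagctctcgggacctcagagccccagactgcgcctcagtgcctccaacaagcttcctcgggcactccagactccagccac

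A chemokine receptor rose and a growth factor receptor fell. Among 34 tested chemokine and cytokine receptors 1 rose and 1 fell (2.94% each, beside 1.29% and 1.77% of all tested genes), and the median was 0.14. Ccr1 measured 7.54, 8.49 and 8.83 CPM in room air and 21.3, 17.4 and 18.1 CPM in 95% O2, a log2 fold change of 1.19 ± 0.21 (SE, edgeR adjusted p = 9.01e-04). Ccr1 is the receptor through which Ccl6 and Ccl9 act on myeloid cells. Kit, the receptor of stem cell factor, which marks general capillary endothelium and mast cells in lung, fell. Kit went from 224, 233 and 150.3 CPM in room air to 61.2, 88.9 and 77.2 CPM in 95% O2 (log2 fold change -1.41 ± 0.18, SE, edgeR adjusted p = 3.66e-05). Each exposed lung was below the lowest room-air lung for Kit. The list's number of rises was 2 without animal 14, 30 or 31 and 2 without the exposed XXM animals 22 and 23, and of falls 3 without animal 15 and 2 without the exposed XXM animals 22 and 23.

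Myeloid markers rose in part. Of 16 markers of interstitial macrophages and monocytes 5 rose (31.2%) and 0 fell, and of 13 neutrophil markers 4 rose (30.8%) and 0 fell, beside 1.29% and 1.77% of all tested genes. Gpnmb measured 8.14, 7.76 and 6.55 CPM in room air and 34.9, 20.04 and 26.2 CPM in 95% O2, a log2 fold change of 1.84 ± 0.23 (SE, edgeR adjusted p = 2.46e-05). Gpnmb is a glycoprotein of lipid-laden and activated macrophages. Ly6c2 went from 5.96, 4.82 and 6.67 CPM in room air to 15.2, 11.7 and 14.7 CPM in 95% O2 (log2 fold change 1.25 ± 0.17, SE, edgeR adjusted p = 9.29e-05), and this gene marks inflammatory monocytes. The complement genes C1qa (0.63), C1qb (0.78) and C1qc (0.64), made by tissue macrophages, rose as well. S100a9 stood at 58.2, 85.4 and 61.3 CPM in room air against 168, 105 and 142 CPM in the exposed animals (log2 fold change 1.01 ± 0.22, SE, edgeR adjusted p = 0.00515). Summed neutrophil markers ran at 184 to 266 CPM in room air and 323 to 453 CPM in 95% O2 and did not overlap, while those of interstitial macrophages and monocytes overlapped at 2642 to 3299.8 CPM in room air and 3219 to 3484 CPM in 95% O2. Stfa2l1 and Stfa2, which also rose, are near-identical copies whose reads may be split between them.

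Alveolar macrophage markers moved both ways. Of 14 markers 3 rose (21.4%) and 2 fell (14.3%), beside 1.29% and 1.77% of all tested genes. The median was -0.48, with 9 of the 14 values negative, while the summed level was 252 to 315 CPM in room air and 332 to 349 CPM in 95% O2, without overlap, and Car4 with its 83.1, 78.6 and 76.8 CPM in room air and 108, 127 and 125 CPM in 95% O2 is part of that sum. The scavenger receptor gene Marco was at 10.5, 11.3 and 5.65 CPM in room air and 27.7, 22.5 and 24.9 CPM in 95% O2 (1.45 ± 0.29, SE, edgeR adjusted p = 0.00244), each exposed lung above every room-air lung. Siglecf, the sialic acid-binding lectin that defines resident alveolar macrophages and eosinophils, fell from 4.81, 4.58 and 6.01 to 2.77, 2.87 and 2.92 CPM (-0.84, edgeR adjusted p = 0.0403). Fabp1, a fatty acid-binding protein gene shared with the liver list, was at 1.48, 0.977 and 0.180 CPM in room air and had 0 counts in all exposed lungs. No fold is given for it. Car4 and Plet1 were the other rises, and both are also expressed outside macrophages, Car4 in aerocytes and Plet1 in airway cells. Siglecf lost its call without animal 13, 14, 15, 29, 30 or 31 (edgeR adjusted p of 0.0720 to 0.143). Stfa2l1 lost its call without animal 13 or 29 (edgeR adjusted p of 0.0579 to 0.0964). S100a8 lost its call without animal 13 or 29 (edgeR adjusted p of 0.0675 to 0.0742). C1qa dropped below the fold minimum without animal 15 or 29 (log2 fold changes of 0.55 to 0.56). C1qc dropped below the fold minimum without animal 15 or 29 (log2 fold changes of 0.50 to 0.57). The number of neutrophil rises was 1 without animal 13 or 29 and 7 without the exposed XXM animals 22 and 23, and that of interstitial macrophage rises 3 without animal 29. The number of alveolar macrophage falls was 1 without animal 13, 14, 15, 29, 30 or 31 and 5 without the exposed XXM animals 22 and 23. Plet1 lost its call without animal 13 or 14 (edgeR adjusted p of 0.0681 to 0.0696).

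Some antioxidant genes rose. NRF2 is the transcription factor that turns on glutathione, thioredoxin and detoxification genes under oxidative stress. Of 35 tested NRF2 and antioxidant genes 5 rose (14.3%, beside 1.29% of all tested genes) and 0 fell. The median of the list was 0.45, 32 of its members had positive values, and in 25 all exposed lungs lay above all room-air lungs (15.0% of all tested genes did). Ephx1 measured 50.1, 53.98 and 43.4 CPM in room air and 97.3, 81.7 and 87.02 CPM in 95% O2, a log2 fold change of 0.85 ± 0.10 (SE, edgeR adjusted p = 1.33e-05). Ephx1 encodes microsomal epoxide hydrolase. Prdx6 went from 282, 285 and 278 CPM in room air to 437, 414 and 439 CPM in 95% O2 (log2 fold change 0.61 ± 0.08, SE, edgeR adjusted p = 4.85e-05). This gene encodes a peroxiredoxin that is abundant in lung epithelium, and its spread within each group was small. The metal-binding antioxidant gene Mt1 was at 31.6, 35.7 and 42.8 CPM in room air and 64.98, 57.1 and 71.004 CPM in 95% O2 (0.81 ± 0.16, SE, edgeR adjusted p = 0.00239). Sulfiredoxin gene Srxn1 (0.62) and glutathione transferase gene Gsta4 (0.64) were the other rises.

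Several well-known NRF2 targets did not pass. Heme oxygenase gene Hmox1 was at 38.4, 37.9 and 34.004 CPM in room air and 84.1, 62.1 and 65.2 CPM in 95% O2 (0.93, edgeR adjusted p = 0.0934), without overlap between the groups. Quinone reductase gene Nqo1 was at 4.86, 5.25 and 7.03 and 8.87, 6.57 and 8.38 CPM (edgeR adjusted p = 0.156), with overlap. The catalytic subunit of glutamate-cysteine ligase, Gclc, passed the adjusted p but not the fold minimum (0.49, edgeR adjusted p = 0.00953), and its modifier Gclm gave 0.16 (edgeR adjusted p = 0.304). Thioredoxin reductase Txnrd1 gave 0.14 (edgeR adjusted p = 0.234). These genes were chosen after their values were seen. Srxn1 lost its call without animal 13, 14, 29 or 31 (edgeR adjusted p of 0.0503 to 0.0946). Gsta4 lost its call without animal 13, 14, 29 or 31 (edgeR adjusted p of 0.0740 to 0.224). The number of rises was 3 without animal 14 or 29, 8 without animal 15 and 11 without the exposed XXM animals 22 and 23.

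Genes of xenobiotic metabolism were called in both directions. Of 19 tested 3 rose (15.8%, beside 1.29% of all tested genes), Ephx1, Cyp2s1 (0.67) and Cyp2b10 (0.94), the last a pair of cytochrome P450 genes. The flavin monooxygenase gene Fmo1 fell from 240.2, 247 and 153 to 106, 141 and 110.2 CPM (-0.84 ± 0.16, SE, edgeR adjusted p = 0.00159). Of 29 HIF target genes 0 were called in either direction, with a median of 0.16. All exposed lungs lay above all room-air lungs for 10 of them and below for 3 (15.0% and 15.8% of all tested genes). The most abundant of them per length, Epas1, which encodes HIF-2-alpha, was at 1158, 1248 and 1136 CPM in room air and 865, 1135 and 1029 CPM in 95% O2 (edgeR adjusted p = 0.136). The glucose transporter gene Slc2a1 passed the adjusted p but not the fold minimum (0.56, edgeR adjusted p = 0.0402). Of 30 genes of the integrated stress and unfolded protein responses 1 rose, the endoplasmic reticulum chaperone partner Sdf2l1 (0.89 ± 0.18, SE, edgeR adjusted p = 0.00260). Values were positive for 26 of the 30, and all exposed lungs lay above all room-air lungs for 10 and below for 0. The summed level of this list was 2808 to 3190 CPM in room air and 3416 to 3491 CPM in 95% O2. Of 31 interferon-stimulated genes 2 rose, Usp18 (0.66, edgeR adjusted p = 0.0103), which removes the ISG15 tag, and Ifit3 (1.03, edgeR adjusted p = 0.0232). Sterol and fatty acid synthesis had 0 calls among 32. Cyp2s1 lost its call without animal 14 or 31 (edgeR adjusted p of 0.0521 to 0.0620). Cyp2b10 lost its call without animal 14 or 31 (edgeR adjusted p of 0.0718 to 0.0881). Usp18 lost its call without animal 14 (edgeR adjusted p = 0.0720). Ifit3 lost its call without animal 13, 14, 15, 29 or 31 (edgeR adjusted p of 0.0547 to 0.0946). The number of xenobiotic rises was 1 without animal 14 or 31. That of interferon rises was 1 without animal 13, 15, 29 or 31 and 0 without animal 14, of stress response rises 3 without animal 15 and 3 without the exposed XXM animals 22 and 23, and of HIF target rises 1 without animal 15, 30 or 31 and 2 without the exposed XXM animals 22 and 23.

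Mitochondrially encoded transcripts were higher in the exposed lungs. They took 1.45 to 1.62% of all counts in room air and 2.09 to 2.21% in 95% O2. Of 13 mitochondrial coding genes 3 rose, beside 1.29% of all tested genes. The adjusted p was passed by 9, beside 694 of 17677 tested genes that passed it with a positive change of any size. For 11 all exposed lungs lay above all room-air lungs (15.0% of all tested genes did). The 13 had a median log2 fold change of 0.60 and a range of 0.36 to 0.97. The complex IV gene mt-Co1 was at 4906, 5263 and 5199.7 CPM in room air and 6878, 7093 and 7400.5 CPM in 95% O2, under the fold minimum (0.48 ± 0.07, SE, edgeR adjusted p = 3.45e-04). mt-Nd2 went from 980.3, 1092 and 1159 CPM in room air to 1616, 1756 and 1539 CPM in 95% O2 (log2 fold change 0.60 ± 0.12, SE, edgeR adjusted p = 0.00266). Both encode membrane subunits of the respiratory chain, of complex IV and complex I. mt-Nd2 dropped below the fold minimum without animal 13 or 30 (log2 fold changes of 0.54 to 0.55).

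**Figure D2:**
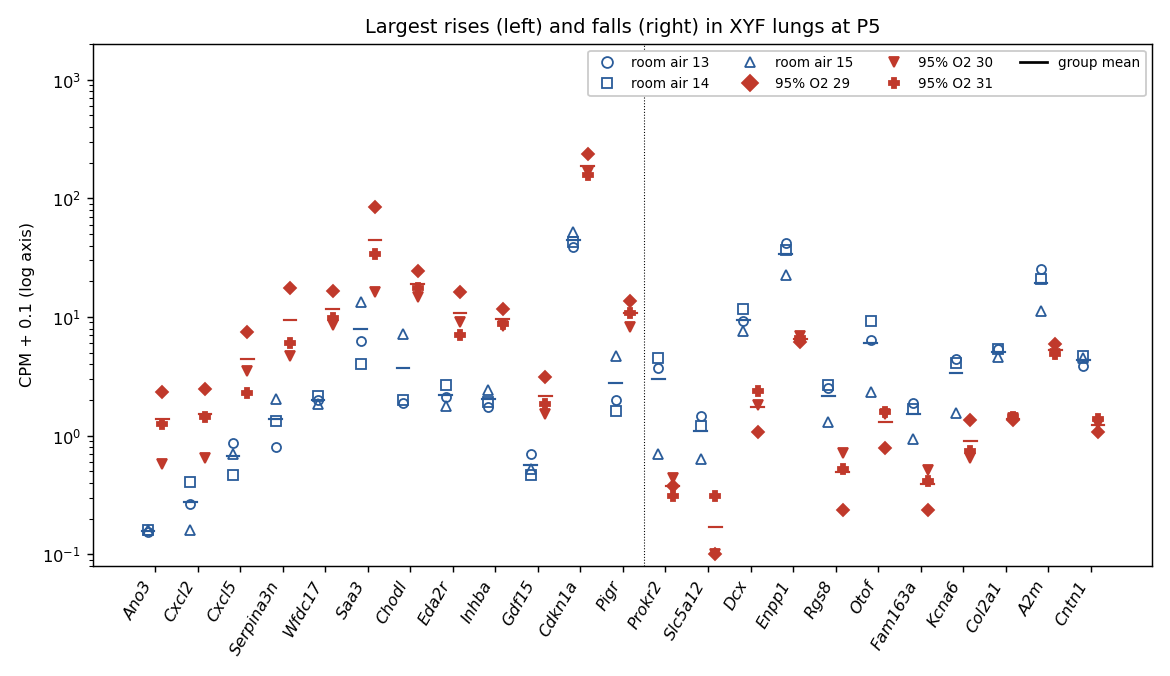
CPM plus 0.1 on a log axis in each XYF lung, for the 12 largest rises (left of the dotted line) and 11 of the 12 largest falls (right) that were called, reached 1 CPM in the higher group and did not overlap. Open blue symbols are room-air animals 13, 14 and 15, filled red symbols exposed animals 29, 30 and 31, and short lines group means. Cdkn1a has the highest CPM of the genes shown, and animal 29 is the highest exposed lung for most of the rises.

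The largest rises beyond the inflammatory genes were of several kinds. Ano3, a member of the anoctamin family of membrane scramblases and channels, was at 0.0547, 0.0611 and 0.0601 CPM in room air and 2.22, 0.479 and 1.17 CPM in 95% O2 (edgeR adjusted p = 0.0218). With 3 counts over the room-air lungs and 45 over the exposed lungs, the ratio was 18.9 (95% exact binomial interval 6.07 to 95.2, for counting error only). Serpina3n went from 0.711, 1.22 and 1.92 CPM in room air to 17.5, 4.58 and 5.99 CPM in 95% O2 (log2 fold change 2.82 ± 0.64, SE, edgeR adjusted p = 0.00715), and this serine protease inhibitor is induced in acute-phase reactions. Reads of Serpina3n may be shared with close copies of the family. Chodl stood at 1.80, 1.89 and 7.15 CPM in room air against 24.4, 14.7 and 17.6 CPM in the exposed animals (log2 fold change 2.37 ± 0.45, SE, edgeR adjusted p = 0.00176). Chodl encodes the membrane lectin chondrolectin. Eda2r measured 2.02, 2.56 and 1.68 CPM in room air and 16.1, 8.96 and 6.9997 CPM in 95% O2, a log2 fold change of 2.32 ± 0.72 (SE, edgeR adjusted p = 0.0457). Pigr, which carries polymeric immunoglobulins across epithelium, was at 1.91, 1.53 and 4.57 CPM in room air and 13.4, 8.14 and 10.7 CPM in 95% O2 (2.002 ± 0.63, SE, edgeR adjusted p = 0.0488). For all of these genes the lowest exposed lung lay above the highest room-air lung, which was a condition for naming them. Ano3 lost its call without animal 13, 14, 15 or 29 (edgeR adjusted p of 0.0633 to 0.111). Serpina3n lost its call without animal 13 or 29 (edgeR adjusted p of 0.0506 to 0.0796). Eda2r lost its call without animal 13, 14, 15, 29, 30 or 31 (edgeR adjusted p of 0.0536 to 0.207). Pigr lost its call without animal 13, 14, 29, 30 or 31 (edgeR adjusted p of 0.0631 to 0.205).

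Among the largest falls were genes best known from neurons and their connections. Dcx measured 9.07, 11.7 and 7.51 CPM in room air and 0.970, 1.71 and 2.28 CPM in 95% O2, a log2 fold change of -2.43 ± 0.51 (SE, edgeR adjusted p = 0.00383). Dcx encodes doublecortin, a microtubule-binding protein of migrating neurons, on the X chromosome. Cntn1 stood at 3.77, 4.58 and 4.39 CPM in room air against 0.970, 1.16 and 1.27 CPM in the exposed animals (log2 fold change -1.87 ± 0.32, SE, edgeR adjusted p = 6.91e-04). Contactin 1 is a neural cell adhesion protein, and its exposed lungs were all near 1 CPM. Otof measured 6.34, 9.22 and 2.22 CPM in room air and 0.693, 1.44 and 1.48 CPM in 95% O2, a log2 fold change of -2.22 ± 0.47 (SE, edgeR adjusted p = 0.00382). Otoferlin serves vesicle release at the synapses of inner hair cells. The G protein regulator Rgs8 (-2.26), the voltage-gated potassium channel Kcna6 (-2.11) and the prokineticin receptor Prokr2 (-3.37) fell too. Prokr2 was at 3.61, 4.46 and 0.601 CPM in room air and 0.277, 0.342 and 0.212 CPM in 95% O2, and room-air animal 15 was close to the exposed lungs. These are single genes named by size, and their grouping was made after their values were seen.

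Enpp1 gave the smallest p among the 12 largest falls. Its product makes pyrophosphate from extracellular ATP (gene at chr10:24637914-24712159, reverse strand). Enpp1 measured 42.4, 36.6 and 22.6 CPM in room air and 6.10, 6.77 and 6.58 CPM in 95% O2, a log2 fold change of -2.38 ± 0.25 (SE, edgeR adjusted p = 7.07e-06). The 3 exposed lungs agree within 1 CPM. The protease inhibitor gene A2m was at 25.3, 20.9 and 11.2 CPM in room air and 5.82, 4.79 and 4.77 CPM in 95% O2 (-1.92 ± 0.40, SE, edgeR adjusted p = 0.00375). Cartilage collagen gene Col2a1 was at 5.25, 5.31 and 4.51 and 1.25, 1.30 and 1.33 CPM (-1.95 ± 0.54, SE, edgeR adjusted p = 0.0259), also without overlap, and this gene is in the marker list of esophagus and trachea. The monocarboxylate transporter Slc5a12 had 0 counts in exposed animals 29 and 30 and 0.212 CPM in animal 31, beside 1.37, 1.10 and 0.541 CPM in room air. Fam163a gave -2.16 ± 0.56 (SE, edgeR adjusted p = 0.0167). Adenylyl cyclase Adcy8 (47.8, 48.1 and 36.9 CPM in room air, 13.02, 15.3 and 13.3 CPM in 95% O2), the incretin receptor Glp1r (20.99, 25.3 and 18.5 and 7.90, 7.93 and 7.32 CPM) and the noncanonical Notch ligand Dlk1 (92.6, 84.2 and 66.6 and 19.1, 27.5 and 39.4 CPM) were chosen after their values were seen, and fell by 1.67, 1.49 and 1.47 on the log2 scale. Prokr2, Slc5a12, Rgs8, Fam163a, Kcna6 and Col2a1 lost their calls without animal 13 (edgeR adjusted p of 0.05003 to 0.123). Prokr2, Rgs8, Fam163a, Kcna6 and Col2a1 lost their calls without animal 14 (edgeR adjusted p of 0.0580 to 0.1395). Prokr2, Slc5a12, Rgs8, Fam163a and Col2a1 lost their calls without animal 29 (edgeR adjusted p of 0.0586 to 0.184). Slc5a12, Rgs8, Kcna6 and Col2a1 lost their calls without animal 30 (edgeR adjusted p of 0.0679 to 0.0810). Prokr2, Rgs8, Fam163a, Kcna6 and Col2a1 lost their calls without animal 31 (edgeR adjusted p of 0.0626 to 0.125).

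Several mesenchymal markers fell. Pdgfra encodes the receptor that alveolar myofibroblasts need to form septa (chr5:75152292-75198215, forward strand). Pdgfra measured 163, 234 and 140.2 CPM in room air and 53.5, 65.5 and 69.1 CPM in 95% O2, a log2 fold change of -1.50 ± 0.16 (SE, edgeR adjusted p = 7.07e-06). The exposed lungs were all well under the lowest room-air lung. Its ligand gene Pdgfa was higher in every exposed lung but under the fold minimum, at 127, 105 and 119 and 149, 142 and 156 CPM (edgeR adjusted p = 0.0190). Pdgfrb, the receptor of pericytes, was at 432, 488 and 317 CPM in room air and 219, 252 and 225 CPM in 95% O2 (-0.83 ± 0.13, SE, edgeR adjusted p = 3.54e-04). Of 49 WNT, hedgehog, FGF and PDGF genes 5 fell (10.2%, beside 1.77% of all tested genes) and 1 rose. The falls included the ligand Wnt11 (-0.78), the FGF feedback inhibitor Spry4 (-0.60, with overlap between the groups) and the WNT effector Lef1 (-0.80), and the rise was the epithelial ligand Wnt7a (16.8, 12.8 and 16.9 CPM in room air and 29.5, 26.4 and 21.3 CPM in 95% O2; edgeR adjusted p = 0.0230). Wnt11 lost its call without animal 13, 14, 29 or 30 (edgeR adjusted p of 0.0624 to 0.150). Spry4 lost its call without animal 13, 14, 29, 30 or 31 (edgeR adjusted p of 0.0843 to 0.331). Lef1 lost its call without animal 13, 14, 29, 30 or 31 (edgeR adjusted p of 0.0798 to 0.144). Wnt7a lost its call without animal 13, 14, 29 or 30 (edgeR adjusted p of 0.0506 to 0.143). The number of falls was 2 without animal 13, 14, 29 or 30 and 9 without animal 15.

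Of 15 myofibroblast and smooth muscle markers 3 fell, beside 1.77% of all tested genes, Pdgfra, Tgfbi and Mustn1, and the summed markers did not overlap, at 2829.7 to 3269 CPM in room air and 2100.01 to 2251 CPM in 95% O2. Tgfbi, an extracellular matrix protein induced by TGF-beta, was at 1136, 1106 and 948 CPM in room air and 522, 617 and 617 CPM in 95% O2 (-0.86 ± 0.11, SE, edgeR adjusted p = 7.37e-05). Contractile genes stayed under the fold minimum. Smooth muscle actin gene Acta2 was at 722, 646 and 671 and 547, 529 and 495 CPM, under the fold minimum (-0.38, edgeR adjusted p = 0.0238), and smooth muscle myosin Myh11 gave -0.44 (edgeR adjusted p = 0.040002). Among 12 pericyte markers 3 fell, Pdgfrb, the nitric oxide receptor subunit Gucy1a1 (-0.70) and the G protein regulator Rgs5 (-0.71), and their summed level was 2219 to 2870.02 CPM in room air and 1823 to 2019 CPM in 95% O2. Among 14 fibroblast markers 2 fell, the transcription factor Tcf21 (-0.66) and the matrix protein dermatopontin, Dpt (-0.63). Gucy1a1 dropped below the fold minimum without animal 14 (log2 fold change -0.53). Rgs5 lost its call without animal 13, 14, 29 or 30 (edgeR adjusted p of 0.0504 to 0.194). Dpt dropped below the fold minimum without animal 13 or 29 (log2 fold change -0.54). The falls numbered 5 without animal 15 or 29 in the myofibroblast list. They numbered 1 without animal 13 or 29 and 4 without animal 15 in the fibroblast list, and 1 without animal 14 in the pericyte list.

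Matrix genes leaned downward, without elastin itself. Of 42 elastic fiber and collagen genes 6 fell (14.3%, beside 1.77% of all tested genes) and 0 rose, with a median of -0.33. For 25 of them all exposed lungs lay below all room-air lungs (15.8% of all tested genes did), and the summed level was 28845 to 30328 CPM in room air and 24805 to 25843 CPM in 95% O2. Mfap2 measured 293, 268 and 228 CPM in room air and 113, 143 and 149 CPM in 95% O2, a log2 fold change of -0.96 ± 0.14 (SE, edgeR adjusted p = 1.29e-04). Mfap2 encodes a microfibril protein that binds fibrillin. Col6a2 went from 794, 754 and 891 CPM in room air to 510.3, 523 and 522 CPM in 95% O2 (log2 fold change -0.65 ± 0.08, SE, edgeR adjusted p = 2.26e-05), with exposed lungs close together. Tnc stood at 986, 935 and 806 CPM in room air against 432, 560.2 and 512 CPM in the exposed animals (log2 fold change -0.86 ± 0.13, SE, edgeR adjusted p = 3.55e-04). Tenascin C is a matrix protein of growing septa. Fibulins Fbln1 (-0.59) and Fbln2 (-0.77) and the collagen-modifying enzyme P4ha3 (-0.60) were the other falls. Elastin, Eln, was at 3073, 3201 and 2652 CPM in room air and 3483, 2291 and 2635 CPM in 95% O2 (-0.09, edgeR adjusted p = 0.835), with overlapping groups. Col6a2 dropped below the fold minimum without animal 15 (log2 fold change -0.57). Fbln1 dropped below the fold minimum without animal 15, 29 or 30 (log2 fold changes of -0.51 to -0.54). Fbln2 lost its call without animal 15, 29 or 30 (edgeR adjusted p of 0.0593 to 0.0897). P4ha3 lost its call without animal 13, 14, 29, 30 or 31 (edgeR adjusted p of 0.0745 to 0.176). The number of falls was 3 without animal 15, 29 or 30.

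The activin subunit gene Inhba rose while 2 BMP ligand genes fell. Activins and BMPs are TGF-beta family ligands, and activin A is made as a dimer of the Inhba product (chr13:16011851-16031621, forward strand). Inhba measured 1.64, 1.83 and 2.34 CPM in room air and 11.5, 8.35 and 8.59 CPM in 95% O2, a log2 fold change of 2.28 ± 0.33 (SE, edgeR adjusted p = 1.84e-04). Of 16 ligands of the family 2 rose (12.5%), Inhba and Gdf15, and 3 fell (18.8%), beside 1.29% and 1.77% of all tested genes. Bmp6 went from 89.4, 88.1 and 54.5 CPM in room air to 36.3, 39.5 and 34.9 CPM in 95% O2 (log2 fold change -1.07 ± 0.16, SE, edgeR adjusted p = 2.30e-04). Bmp2 stood at 17.1, 22.4 and 14.5 CPM in room air against 9.56, 10.2 and 10.4 CPM in the exposed animals (log2 fold change -0.83 ± 0.15, SE, edgeR adjusted p = 0.00138). Gdf10, a further BMP-related ligand, gave -0.81 (edgeR adjusted p = 0.0207). Room-air animal 15 had the lowest room-air level of Bmp6 and of Bmp2 and stayed above every exposed lung. Tgfb1 was at 63.8, 64.4 and 66.4 and 62.3, 65.7 and 64.005 CPM (edgeR adjusted p = 0.959), Tgfb2 at 129.8, 139.8 and 104 and 107, 146 and 119.8 CPM (edgeR adjusted p = 0.999), and Tgfb3 gave -0.34 (edgeR adjusted p = 0.0866). Follistatin, Fst, the antagonist of activin, was higher in all exposed lungs (1.26, 1.28 and 2.76 and 4.02, 3.15 and 3.18 CPM) but not called (edgeR adjusted p = 0.548). Of 19 genes listed as inhibitors and carriers 2 fell (10.5%, beside 1.77% of all tested genes), Tgfbi and Ltbp2. Tgfbi is a matrix protein induced by TGF-beta, neither an inhibitor nor a carrier. The latent TGF-beta binding protein gene Ltbp2 was at 826, 871 and 575 CPM in room air and 444, 473 and 501 CPM in 95% O2 (-0.68 ± 0.16, SE, edgeR adjusted p = 0.00854). Of 15 receptors 0 were called, beside 3.05% of all tested genes, with a median of 0.03. The most abundant per length, Acvrl1, gave -0.10 (edgeR adjusted p = 0.520). Among 18 target genes Tnc fell and the integrin Itgb6 rose (5.56% each, beside 1.77% and 1.29% of all tested genes). Gdf15 lost its call without animal 13, 14, 15, 29, 30 or 31 (edgeR adjusted p of 0.05996 to 0.214). Gdf10 lost its call without animal 13, 14, 29 or 30 (edgeR adjusted p of 0.0609 to 0.0935). Ltbp2 lost its call without animal 13, 14 or 29 (edgeR adjusted p of 0.0504 to 0.0653). The number of ligand rises was 1 without animal 13, 14, 15, 29, 30 or 31. Falls in the list of inhibitors and carriers numbered 1, Tgfbi, without animal 13 or 29. Among target genes the rises numbered 0 without animal 14 or 29 and 2 without animal 31, and the falls 2 without animal 13 or 14 and 3 without animal 31.

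Some markers of general capillary cells fell. The alveolar capillary bed holds general capillary cells, which act as progenitors and bear Kit, Aplnr and Gpihbp1, and large Car4-positive aerocytes that face the gas exchange surface. Of 14 general capillary and pan-endothelial markers 3 fell (21.4%, beside 1.77% of all tested genes), Kit, Aplnr and Gpihbp1, and 0 rose. Aplnr measured 212, 279 and 152 CPM in room air and 55.3, 104 and 103 CPM in 95% O2, a log2 fold change of -1.27 ± 0.23 (SE, edgeR adjusted p = 0.00119). Gpihbp1 went from 105, 139 and 101 CPM in room air to 55.97, 62.5 and 53.98 CPM in 95% O2 (log2 fold change -1.0004 ± 0.15, SE, edgeR adjusted p = 1.68e-04). Aplnr is the apelin receptor, and Gpihbp1 anchors lipoprotein lipase in capillaries. In all 3 genes each exposed lung was below each room-air lung. Of 10 aerocyte markers Car4, a carbonic anhydrase, rose from 83.1, 78.6 and 76.8 to 108, 127 and 125 CPM (0.60 ± 0.07, SE, edgeR adjusted p = 2.36e-05), and Fibin fell from 139, 137 and 89.04 to 64.8, 65.1 and 61.04 CPM (-0.94). The apelin gene Apln, an aerocyte ligand on the X chromosome, was at 74.6, 111 and 104 and 131, 158 and 133 CPM, under the fold minimum (0.55, edgeR adjusted p = 0.0299). Summed levels were 4325 to 5482 CPM in room air and 3812 to 4218 CPM in 95% O2 for general capillary markers and 2949 to 3327 CPM in room air and 3001 to 3313 CPM in 95% O2 for aerocyte markers, the first without and the second with overlap. Car4 dropped below the fold minimum without animal 15, 30 or 31 (log2 fold changes of 0.56 to 0.58). The number of aerocyte rises was 2 without animal 14 and 0 without animal 30, and of falls 2 without animal 13, 30 or 31.

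VEGF, angiopoietins and apelin are growth factors that act on endothelium. Of 35 genes of their signaling 1 fell (2.86%, beside 1.77% of all tested genes), Aplnr, and 0 rose. Vegfa was at 682, 705 and 732 CPM in room air and 614, 686 and 659 CPM in 95% O2 (edgeR adjusted p = 0.483) and its receptor gene Kdr at 419, 520.2 and 405 and 524, 565 and 489 CPM (edgeR adjusted p = 0.150), both with overlap. Of 13 markers of larger vessels and lymphatics 3 fell (23.1%, beside 1.77% of all tested genes). Von Willebrand factor, Vwf, was at 198, 233 and 238 and 158, 138 and 149.8 CPM (-0.59, edgeR adjusted p = 0.00135), the arterial transcription factor Sox17 at 156, 139.97 and 97.6 and 83.5, 83.2 and 84.4 CPM (-0.65, edgeR adjusted p = 0.00454), and the norepinephrine transporter Slc6a2 at 16.01, 17.2 and 23.7 and 5.54, 6.70 and 5.14 CPM (-1.71, edgeR adjusted p = 0.0223). Vwf dropped below the fold minimum without animal 14, 15 or 30 (log2 fold changes of -0.53 to -0.55). Sox17 dropped below the fold minimum without animal 13 (log2 fold change -0.50). Slc6a2 lost its call without animal 14, 15, 29, 30 or 31 (edgeR adjusted p of 0.0521 to 0.0962). In the VEGF, angiopoietin and apelin list the falls numbered 2 without animal 13, 15, 30 or 31 and 2 without the exposed XXM animals 22 and 23, and the rises 1 without animal 14, 15 or 31 and 1 without the exposed XXM animals 22 and 23. In the list of larger vessels the falls numbered 1 without animal 14, 15 or 30.

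Some epithelial genes of barrier and fluid transport rose. Scnn1a, the alpha subunit of the epithelial sodium channel that clears alveolar fluid, was at 119.8, 132 and 156 CPM in room air and 265, 239.7 and 246 CPM in 95% O2 (0.88 ± 0.16, SE, edgeR adjusted p = 0.00133), without overlap between the groups. The water channel Aqp4 (0.73) and the potassium channel Kcnj15 (0.63) rose as well. The potassium channel Kcnk3, known from pulmonary artery muscle, fell from 84.9, 78.96 and 78.6 to 45.7, 40.1 and 45.1 CPM (-0.89 ± 0.10, SE, edgeR adjusted p = 1.33e-05), as did the sodium channel Scn7a (-0.67) and the sodium pump subunit Atp1b2 (-0.62). In total 3 of 47 channel and pump genes rose and 3 fell (6.38% each, beside 1.29% and 1.77% of all tested genes). Of 38 basement membrane and integrin genes 4 rose (10.5%, beside 1.29% of all tested genes) and 0 fell. They included the laminin chain Lamb3 (166, 167 and 172 and 287, 242 and 254 CPM; edgeR adjusted p = 0.00198), the epithelial integrin Itgb6 (65.4, 53.3 and 68.1 and 118, 88.4 and 82.99 CPM; edgeR adjusted p = 0.00263) and the alveolar collagen IV chain Col4a3 (0.59). Aqp4 lost its call without animal 13, 14, 29 or 31 (edgeR adjusted p of 0.0508 to 0.0639). Kcnj15 lost its call without animal 13 or 30 (edgeR adjusted p of 0.0543 to 0.0857). Scn7a lost its call without animal 13, 14 or 29 (edgeR adjusted p of 0.0730 to 0.148). Atp1b2 lost its call without animal 13, 14, 29 or 30 (edgeR adjusted p of 0.0757 to 0.204). Lamb3 dropped below the fold minimum without animal 29 (log2 fold change 0.56). Itgb6 dropped below the fold minimum without animal 14 or 29 (log2 fold changes of 0.46 to 0.52). Col4a3 lost its call without animal 13, 14, 29 or 30 (edgeR adjusted p of 0.0577 to 0.152). Channel and pump rises numbered 1 without animal 13 and 5 without animal 15, and falls 1 without animal 13, 14 or 29 and 5 without the exposed XXM animals 22 and 23. Basement membrane and integrin rises numbered 2 without animal 14 and 1 without animal 29.

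Several airway and alveolar cell markers rose. Of 10 club cell markers 3 rose, beside 1.29% of all tested genes. Haptoglobin, Hp, a hemoglobin-binding acute-phase protein, was at 304, 269 and 399 CPM in room air and 888, 635 and 769.96 CPM in 95% O2 (1.24 ± 0.15, SE, edgeR adjusted p = 3.30e-05). The retinaldehyde dehydrogenase Aldh1a1 was at 192, 203 and 302 and 462, 399 and 463 CPM (0.93 ± 0.15, SE, edgeR adjusted p = 4.86e-04), and the GABA receptor subunit gene Gabrp gave 0.74. The defining secretoglobin gene Scgb1a1 had lower values in every exposed lung but was not called (5387, 5021 and 6056 and 4401, 3934 and 4904 CPM; edgeR adjusted p = 0.198). Of 14 markers of stressed transitional epithelium 2 rose, the lectin Lgals3 (65.8, 59.3 and 64.8 and 164, 99.05 and 120.3 CPM; edgeR adjusted p = 1.68e-04) and Itgb6, and the keratin Krt8 gave 0.30 (edgeR adjusted p = 0.105). The type 1 cell guidance ligand Sema3e (0.60, edgeR adjusted p = 0.00989), the type 2 cell mucin Muc1 (0.60, edgeR adjusted p = 1.33e-04) and the ciliary gene Cfap126 (0.60, edgeR adjusted p = 0.0379) were the sole calls of their respective lists of 14, 14 and 12 tested genes. Summed levels of alveolar type 1 cell markers were 6529 to 6898 CPM in room air and 7452 to 7708 CPM in 95% O2, those of type 2 cell markers 25330.3 to 27377 CPM in room air and 27541 to 33441 CPM in 95% O2, and neither overlapped. Cyp26b1, which degrades retinoic acid, fell from 22.6, 18.6 and 24.4 to 8.04, 10.3 and 9.65 CPM (-1.22 ± 0.23, SE, edgeR adjusted p = 0.00168). Sema3e lost its call without animal 13 or 30 (edgeR adjusted p of 0.0515 to 0.0607). Sema3e dropped below the fold minimum without animal 15 (log2 fold change 0.57). Muc1 dropped below the fold minimum without animal 29 or 31 (log2 fold change 0.56). Cfap126 lost its call without animal 13, 14 or 31 (edgeR adjusted p of 0.131 to 0.258). Itgb6 dropped below the fold minimum without animal 14 or 29 (log2 fold changes of 0.46 to 0.52). Rises of the transitional list numbered 1 without animal 14 or 29 and 4 without animal 30. Those of the ciliated list numbered 0 without animal 13, 14 or 31, 4 without animal 15, 2 without animal 30 and 4 without the exposed XXM animals 22 and 23.

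Proteases and their inhibitors moved both ways, with 8 of 41 up (19.5%, beside 1.29% of all tested genes) and 4 down (9.76%, beside 1.77%). Cathepsin S, Ctss, an elastolytic protease of macrophages, was at 106, 103 and 125 CPM in room air and 236, 195 and 223 CPM in 95% O2 (0.97 ± 0.10, SE, edgeR adjusted p = 7.07e-06). The urokinase gene Plau (0.81) and the gelatinase of neutrophils Mmp9 (0.9997) rose, beside the inhibitors Timp1 (0.85), Timp3 (0.75), Serpina3g (1.36) and Stfa2 (1.12). Adamts7, a protease of cartilage and vessel wall matrix, was at 44.3, 45.2 and 39.5 and 21.6, 24.8 and 27.04 CPM (-0.80 ± 0.10, SE, edgeR adjusted p = 3.47e-05). The aggrecanases Adamts1 (-0.93) and Adamts5 (-0.64) and the metalloprotease Mmp28 (-0.74) also fell. Spink5, a serine protease inhibitor of epithelia chosen after its values were seen, rose from 28.4, 29.5 and 33.3 to 90.5, 73.7 and 71.4 CPM (1.36 ± 0.14, SE, edgeR adjusted p = 7.07e-06). Mmp9, Stfa2, Adamts5 and Mmp28 lost their calls without animal 13 (edgeR adjusted p of 0.0533 to 0.105). Mmp9, Timp1, Adamts1, Adamts5 and Mmp28 lost their calls without animal 14 (edgeR adjusted p of 0.0565 to 0.0937). Mmp28 lost its call without animal 15 (edgeR adjusted p = 0.0594). Mmp9, Timp1, Serpina3g, Stfa2, Adamts5 and Mmp28 lost their calls without animal 29 (edgeR adjusted p of 0.0517 to 0.135). Adamts5 and Mmp28 lost their calls without animal 30 (edgeR adjusted p of 0.0508 to 0.0675). Mmp9 and Mmp28 lost their calls without animal 31 (edgeR adjusted p of 0.0580 to 0.105). The number of rises was 5 without animal 13, 3 without animal 29 and 13 without the exposed XXM animals 22 and 23, and of falls 2 without animal 13, 29 or 30 and 1 without animal 14.

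Some blood and clock genes were called. Of 11 erythroid markers 2 fell (18.2%, beside 1.77% of all tested genes), the globin Hbb-bt (696, 763 and 705 CPM in room air and 376, 461 and 414 CPM in 95% O2; edgeR adjusted p = 0.0190) and the heme synthesis gene Alas2 (173, 194 and 156 and 107, 113 and 99.96 CPM; edgeR adjusted p = 0.0314), and the summed level was 6209 to 6462 CPM in room air and 3828 to 4239 CPM in 95% O2, without overlap. Globin copies are near-identical, and their reads may be split. In the clock, the D-box activator Hlf fell from 24.2, 28.6 and 16.5 to 9.28, 11.3 and 13.7 CPM (edgeR adjusted p = 0.00158), Nfil3, its opponent at D-boxes, from 21.97, 22.6 and 20.6 to 11.8, 14.4 and 14.5 CPM (edgeR adjusted p = 0.00818), and the repressor Bhlhe41 rose (0.78, edgeR adjusted p = 0.0109). The core activator Arntl was at 22.2, 24.3 and 23.3 and 22.999, 23.7 and 18.7 CPM (edgeR adjusted p = 0.901). Hbb-bt lost its call without animal 14, 29 or 31 (edgeR adjusted p of 0.0560 to 0.114). Alas2 lost its call without animal 13, 14, 29, 30 or 31 (edgeR adjusted p of 0.0654 to 0.135). Nfil3 lost its call without animal 29 (edgeR adjusted p = 0.0632). Bhlhe41 lost its call without animal 29 or 31 (edgeR adjusted p of 0.0547 to 0.0628). Markers of dendritic cells, T and NK cells, B cells, cardiac muscle, skeletal muscle, adipose tissue and mesothelium had 0 calls. Of 15 tested glucocorticoid-responsive genes 2 rose (13.3%, beside 1.29% of all tested genes), Cdkn1a and Lcn2, and 0 fell. Both are also in lists given above, and the rises numbered 1 without animal 29. Of the other lists, Lef1 was the sole call of 10 tested thymocyte markers and Kit of 11 mast cell markers. Fabp1 was that of 9 liver markers and Col2a1 of 8 esophagus and trachea markers. All of these fell, beside 1.77% of all tested genes. The part of blood, carried-over tissue or time of day in the other results was not tested. Erythroid falls numbered 1 without animal 13 or 30, 0 without animal 14, 29 or 31 and 6 without the exposed XXM animals 22 and 23.

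**Figure D3:**
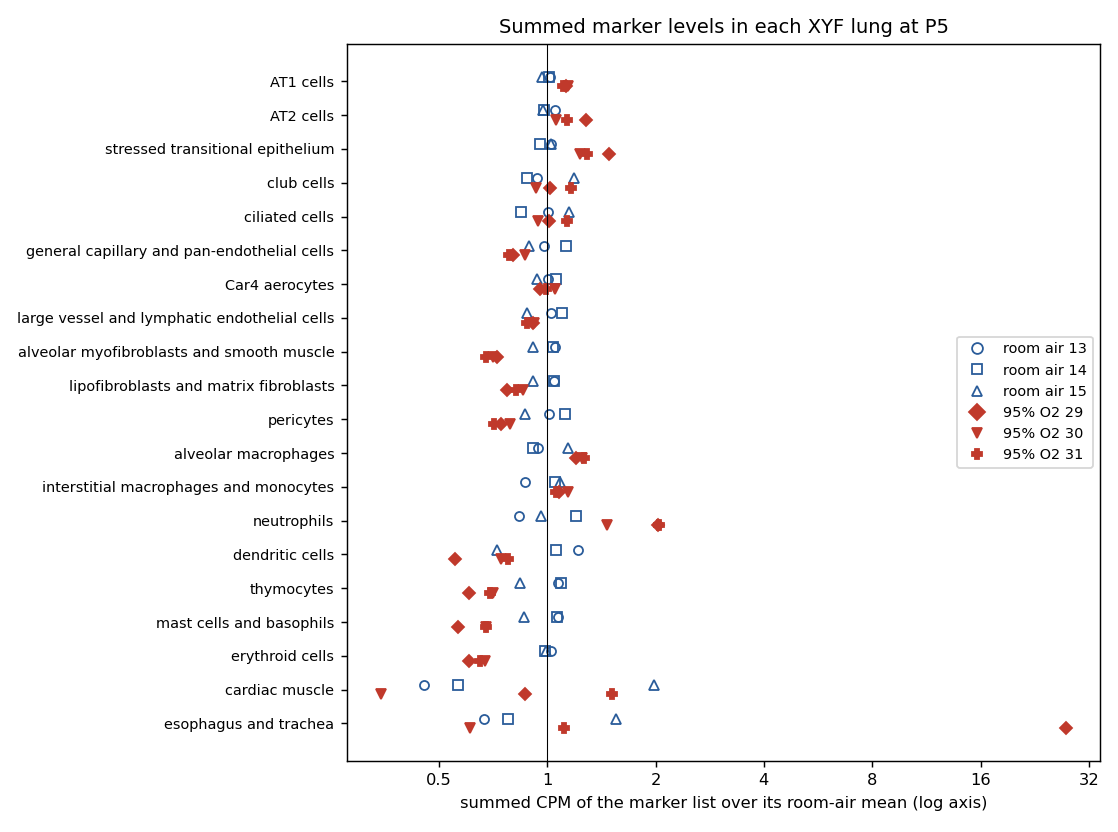
Summed CPM of the cell type marker lists drawn, in each XYF lung, divided by the mean of the 3 room-air lungs, on a log axis. Open blue symbols are room-air and filled red symbols exposed animals. Exposed lungs lie to the left of all room-air lungs for the myofibroblast, fibroblast, pericyte, general capillary, thymocyte, mast cell and erythroid lists. They lie to the right for the type 1 cell, type 2 cell, transitional epithelium, alveolar macrophage and neutrophil lists. Kit, also in the general capillary list, is part of the mast cell sum, and 7 of 11 tested mast cell markers have positive log2 fold changes (median 0.26). Car4, also in the aerocyte list, is part of the alveolar macrophage sum, and the median log2 fold change of that list is -0.48. Animal 29 alone is far to the right for esophagus and trachea.

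**Figure D4:**
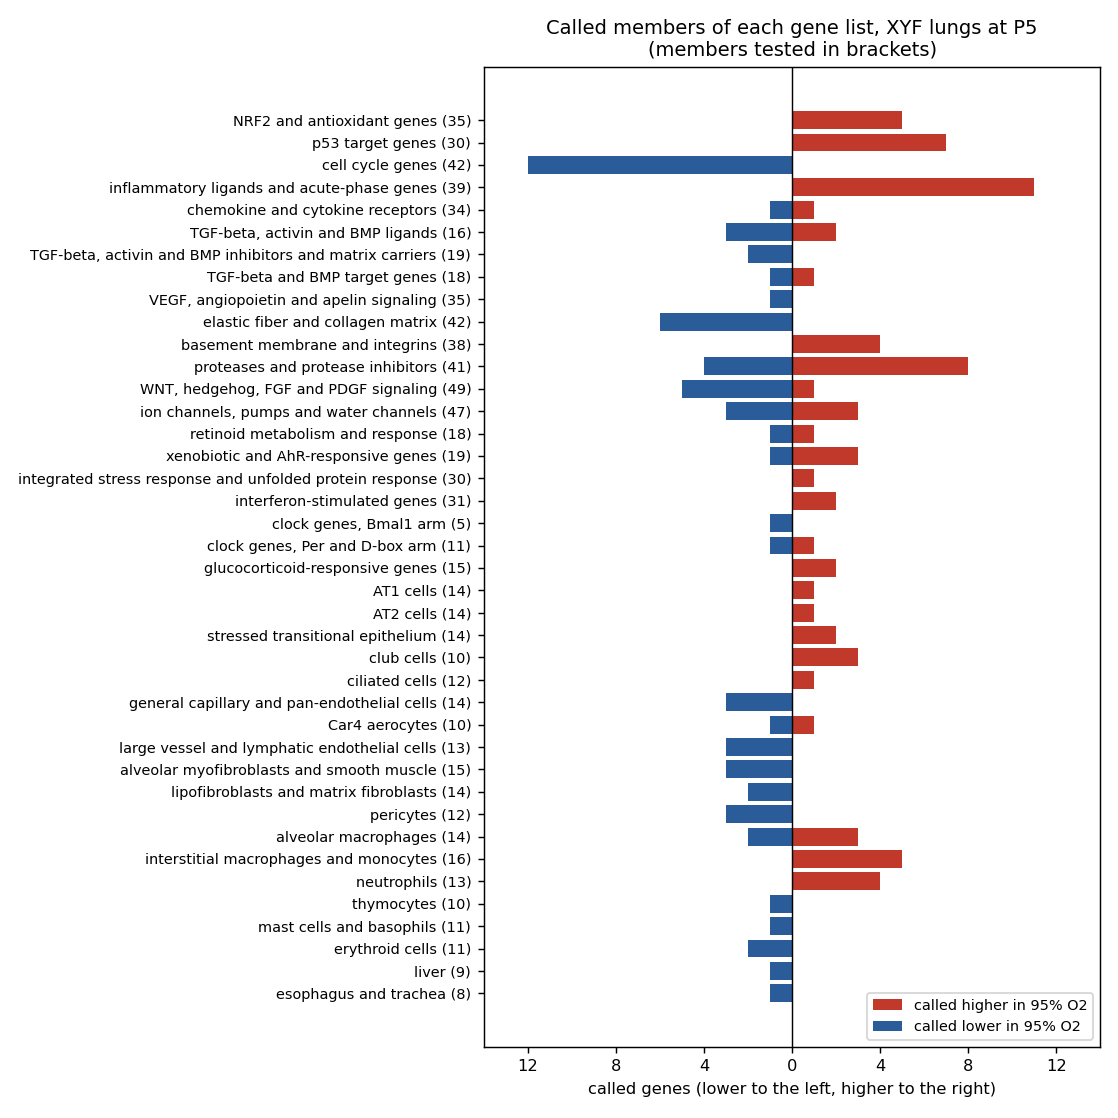
Called members of the 40 gene lists that had any, lower to the left (blue) and higher to the right (red), with the number of tested members in brackets. The inflammatory list has 11 rises and 0 falls, the cell cycle list 12 falls and 0 rises, and the protease list calls in both directions.

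Some X-linked genes were called, with falls near the share of all tested genes. Of 566 tested X genes 4 rose and 9 fell, or 0.707% and 1.59%, beside 1.29% and 1.77% of all tested genes. The rises were Eda2r, Timp1, the amino acid transporter Slc6a14 (34.1, 35.97 and 32.3 CPM in room air and 73.99, 62.9998 and 62.1 CPM in 95% O2; edgeR adjusted p = 2.26e-05) and Pof1b (0.71), which is found at epithelial junctions. The falls were Dcx, Armcx4 (226, 242 and 191 and 107, 130.04 and 116 CPM; edgeR adjusted p = 3.35e-05), Alas2, the Frizzled ligand norrin, Ndp (-1.20), Tro (-0.97), Kcne1l (-1.48), Srpx (-0.74), Kctd12b (-0.77) and the sulfotransferase Chst7 (-0.65). Of 12 X genes known to escape inactivation 0 were called, beside 3.05% of all tested genes. Ddx3x, the most abundant of them per length, was at 300.5, 376 and 359 and 374, 382 and 334 CPM (edgeR adjusted p = 0.811). Of 7 tested Y-linked genes 0 were called by edgeR, 0 had an unadjusted p under 0.05, and the smallest adjusted p was 0.499. Sry is among the 7, and with 0 counts in all XYF lungs it could not be called. Neither list is large enough to tell 0 calls from the 3.05% of all tested genes. Eda2r and Alas2 lost their calls without animal 13 (edgeR adjusted p of 0.0825 to 0.138). Eda2r, Timp1, Alas2, Srpx and Kctd12b lost their calls without animal 14 (edgeR adjusted p of 0.0565 to 0.135). Eda2r lost its call without animal 15 (edgeR adjusted p = 0.124). Eda2r, Timp1, Alas2, Srpx, Pof1b and Kcne1l lost their calls without animal 29 (edgeR adjusted p of 0.0656 to 0.207). Eda2r, Alas2 and Pof1b lost their calls without animal 30 (edgeR adjusted p of 0.0536 to 0.0714). Eda2r and Alas2 lost their calls without animal 31 (edgeR adjusted p of 0.0536 to 0.104).

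The XYF response was set beside those of XXF, which shares the ovaries, and XYM, which shares the sex chromosomes. Each genotype has its own room-air animals, and the estimate of spread is shared. In the same fit 141 genes rose (0.798%) and 133 fell (0.752%) in XXF, and 372 rose (2.1%) and 658 fell (3.72%) in XYM, or 5.83% in all. Of the genes that rose in XYF, 99 also rose in XXF (43.4% of the XYF and 70.2% of the XXF rises) and 162 in XYM (71.1% and 43.5%). Of those that fell in XYF, 87 also fell in XXF (27.9% and 65.4%) and 268 in XYM (85.9% and 40.7%). Directions were shared more widely than calls, since 226 of the 228 rises were positive in XXF and 227 in XYM, and 309 of the 312 falls were negative in XXF and 311 in XYM. The genes that fell in XYF had a median log2 fold change of -0.81 there, -0.57 in XXF and -0.99 in XYM, and for those that rose it was 0.79, 0.65 and 0.77. The XYF median is that of genes chosen in XYF. In all 4 genotypes 60 rises and 61 falls were called.

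**Figure D5:**
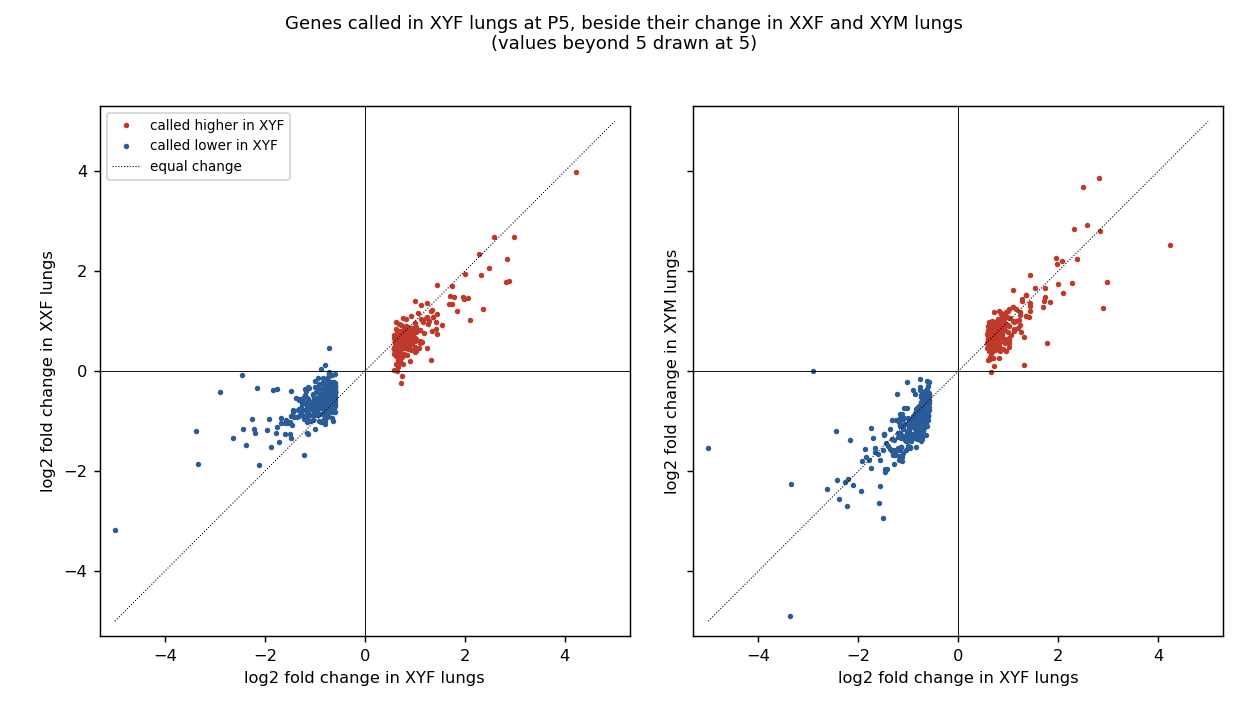
Log2 fold change in XXF (left) and XYM (right) lungs against that in XYF lungs, for the 228 genes called higher (red) and 312 called lower (blue) in XYF. The dotted line marks equal change. The genes that fell in XYF have a median of -0.57 in XXF and -0.99 in XYM.

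No difference of response between genotypes was called. For XYF minus XXF, XYF minus XYM and XYF minus the mean of the other 3 genotypes, 0 of 17677 genes (0.0%) passed in edgeR, and 376, 247 and 289 had an unadjusted p under 0.05. These tests use the shared spread that includes exposed XXM animals 22 and 23. Without them the XYF calls went from 228 up and 312 down to 462 and 569, so 0 calls does not show equal responses. Of 33 rises and 23 falls called in XYF and in no other genotype, 0 passed a test of the difference from the other genotypes and 8 and 6 had an unadjusted p under 0.05, so a call in XYF alone does not show a response particular to it. On the log2 scale Cdkn1a gave 2.07 in XYF, 1.46 in XXF and 2.20 in XYM. Pdgfra gave -1.50 in XYF, -1.02 in XXF and -1.58 in XYM, and Enpp1 gave -2.38 in XYF, -1.48 in XXF and -2.56 in XYM. The XYF minus XXF difference for Pdgfra was -0.49 ± 0.22 (SE) and for Enpp1 -0.89 ± 0.35 (SE). Inhba gave 2.28 in XYF, 2.34 in XXF and 1.77 in XYM. Cell cycle genes gave a median of -0.49 with 12 falls in XYF, -0.53 with 11 in XXF and -0.78 with 25 in XYM. The genes with the smallest p for XYF minus XXF were Sox11, Vtn, Krt1, Rps19-ps6 and Gm28661. Sox11, a transcription factor of developing tissue, fell in XYF from 60.3, 66.1 and 54.1 to 29.1, 37.9 and 33.8 CPM and gave -0.25 in XXF, a difference of -0.58 ± 0.15 (SE, edgeR adjusted p = 1.00). For XYF minus XYM they were Krt13, Krt4, Krt5, Tgm3 and Krt6a, genes of stratified epithelium that were at 17.5 to 219.9 CPM in animal 29 and under 2 CPM in each of the other 5 XYF lungs. For XYF minus the other 3 genotypes they were 4930558J18Rik, Gm43579, Rab26, Gm6180 and Sox8, all under 1 CPM in each XYF lung. DESeq2 called 9, 7 and 8 differences, mostly in genes of stratified epithelium. All were among Krt6a, Krt13, Krt4, Sprr3, Sprr1a, Cnfn, Crct1, Tmprss11a, Psca, Csta1 and 2300002M23Rik. In edgeR the XYF log2 fold changes of Krt13, Krt4 and Krt6a were 1.49, 0.32 and 2.36 without animal 29, and 8.03, 6.15 and 9.69 without animal 15. When exposed XXM animal 21 was left out, 254 genes were called for XYF minus the other 3 genotypes, with exposed XXM then resting on animals 22 and 23.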

How the data were processed

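RNA of whole lung was sequenced from 24 animals at P5, 3 in each of 8 groups, with QIAseq stranded poly(A) libraries. The deposited values were read counts per gene, made by the authors with HISAT2 and featureCounts on mm10 per the submitters' processing notes. Not given in the sources used here were their versions, the annotation release and the strand and multi-mapping settings. Symbols and positions came from GENCODE M21 (GRCm38), which held 52403 of 52550 gene IDs. The other 147 took 0.00824% of counts. P21 animals were not used here, and some genes are not reported here.

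Counts were fitted in edgeR 4.0.16 (R 4.3.3) with 8 group means, TMM scaling, the filterByExpr filter with a minimum count of 10, and quasi-likelihood tests. Calls needed a Benjamini-Hochberg adjusted p under 0.05 together with a 1.5-fold change or more. The SE is the log2 fold change divided by the square root of F, an approximation. The common biological coefficient of variation was 0.149. Totals of the P5 libraries ran from 6008291 to 56798952, and pairs of XYF replicates differed by 5.81 to 13.6 in chi-square per degree of freedom, beyond sampling noise. Animals are separate by their numbers. Intervals cover counting error only. Sequencing batches are not stated. Promoter windows came from RefSeq (GRCm38.p6), without chromosome 18.

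The genes named were the 12 largest rises and falls with at least 1 CPM in the higher group and no overlap, leaving out predicted genes whose symbols start with Gm or end in Rik, the 3 called members with the smallest p in each of 52 lists (otherwise the most abundant), and the 5 smallest p of each of 3 interactions. The other genes were chosen after their values were seen. The genotype, lists, members and tests were chosen with earlier results of these data known. Scripts were tested on simulated data. The alternatives were RLE scaling, DESeq2 1.42.0, no count filter, no fold minimum, thinned counts, the 6 XYF animals alone, leaving out exposed XXM animals 22 and 23, leaving out each animal, and, added after the data were seen, leaving out animals 29, 22 and 23. Reads of near-identical copies (globins, Gsta1 and Gsta2, Stfa2 and Stfa2l1, Serpina3g and Serpina3n) may be split or dropped.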

Additional observations from a re-analysis of the deposited data

Results flagged for a closer look

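In 2 low genes the exposed XYF lungs moved opposite to another genotype. Every exposed XYF lung was above every room-air XYF lung for the predicted gene Gm43579 (log2 fold change 1.35), and every exposed XXM lung was below every room-air XXM lung (-5.40). The difference was not tested for this pair, and exposed XXM animals 22 and 23 had few detected genes. The predicted gene Gm6180 gave 0.73 in XYF, -1.27 in XXF and -0.99 in XYM, each without overlap between exposed and room-air lungs. The differences of XYF from XXF and from XYM did not pass (edgeR adjusted p = 1.00 for each). Both genes were under 1 CPM in every XYF lung.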

How the results depend on the processing

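All of the called genes kept their sign in the alternatives that tested them. RLE scaling gave 224 genes up and 315 down, DESeq2 288 and 373, no count filter 271 and 340, the 6 XYF animals alone 324 and 411, and thinned counts 219 and 296. Leaving out the fold minimum gave 694 and 827, and leaving out exposed XXM animals 22 and 23 gave 462 and 569. Without animals 29, 22 and 23 there were 334 and 383. Leaving out each XYF animal in turn gave 126 to 287 up and 154 to 360 down, the fewest without animal 29 and the most without animal 15. Differences of XYF from XXF, XYM and the other 3 genotypes, 0 in edgeR, numbered 9, 7 and 8 in DESeq2 and 7, 31 and 17 without the count filter. The DESeq2 differences are the genes named above, mostly of stratified epithelium. Leaving out each animal in turn gave 0 to 254 for XYF minus the other 3 genotypes, 254 being without exposed XXM animal 21, and 0 for the others. The cause of these shifts was not tested. Among 230 named genes 0 reversed, and 68 called ones were lost without animal 29. Genes under 1 CPM rest on few reads, most of all in animal 29. No paired analysis was possible because the groups compared share no animal number.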
